A study of Drosophila melanogaster with 16 samples.

Results

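Calreticulin, named Crc in the study's probe table, was followed in cardiac tubes of Drosophila melanogaster males aged 10 and 40 days through the 8 probes of its transcript FBtr0082103, which is 1 of 16637 transcripts and 8 of 132999 gene probes. The gene was picked because the study's table of called probes lists it for this same comparison, so its levels and ratios are given as a description and are not tested. Both groups were adult males of 1 genetic background, given as w1118, Canton S isogenic line, and the labels name age as what differs between them. Each age had 4 biological replicates, lettered A to D, and each of these pooled the RNA of 10 dissected tubes. This RNA was amplified from an oligo(dT) primer, and the product was amplified again in a further round. Part of each sample was labelled with Cy3 and part with Cy5, and on each of the 8 arrays 1 dye carried a young and the other an old sample. In RNA from a whole organ a change in the number of cells of a type and a change in RNA per cell cannot be told apart.

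Calreticulin is a soluble chaperone of the endoplasmic reticulum. Its globular and arm domains hold newly made glycoproteins through their sugar chains until they have folded, and its acidic tail binds calcium with high capacity, so the protein serves both as a folding helper and as a calcium store. In mice it is needed for the heart to develop. The transcript was named Crc by the study's probe table through the FlyBase gene FBgn0005585, and RefSeq now lists this gene, CG9429, as Calr. A gene table of the same study gives the identical entry to crc, CG8669, which is cryptocephal, a transcription factor of the ATF4 family. Both names share their letters, RefSeq holds both spellings as synonyms of Calr, and the name Crc here rests on the probe table's entry for the transcript. RefSeq places 1 noncoding RNA gene, sisRNA:CR46357, over the Calr gene, and whether the probes also read it was not analysed here.

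The 8 probes lie at positions 10, 26, 180, 192, 451, 483, 693 and 944 of the transcript as the array design counts them. Probes that start close together, as those at 10 and 26, at 180 and 192 and at 451 and 483 do, are not counted as independent readings. Of the 128 scanner intensities, 124 were above the 95th percentile of the random control probes of their channel, which lay between 107.7 and 213.6, and the highest of the 128 was 14543 against 59047 for the brightest gene probe of any channel. Between 22.1% and 29.7% of gene probes were above that percentile in a channel, so Crc stood among the clearly measured transcripts. The 4 readings at or under the control level came from the 10-day channels of arrays 5 and 6, 2 of them at position 26 and 1 each at positions 10 and 192.

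The later probes were the brighter ones. The probe at 944 was the brightest in 12 of the 16 channels and the probe at 693 in the other 4, while the probe at 26 was the dimmest in 13. At position 10 the 10-day channels gave a scanner intensity of 134.4 at the lowest, 381.5 at the median and 1131 at the highest, and the 40-day channels gave 370.0, 482.7 and 1755. At position 451 the values were 497.6, 1169 and 3783 at 10 days and 1112, 1689 and 5928 at 40 days. At position 944 they were 1618, 4718 and 7631 at 10 days and 4725, 10219 and 14543 at 40 days. Scanner intensities are not normalized, and the brightness of a probe also depends on its own sequence, so these values show the shape along the transcript within a channel rather than amounts of RNA. The channels differed in that shape. Where the probe at 10 was above the control level, the probe at 944 was 3.62 to 22.7 times as bright in 7 channels of 10 days and 5.68 to 37.2 times in 8 channels of 40 days.

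**Figure D1:**
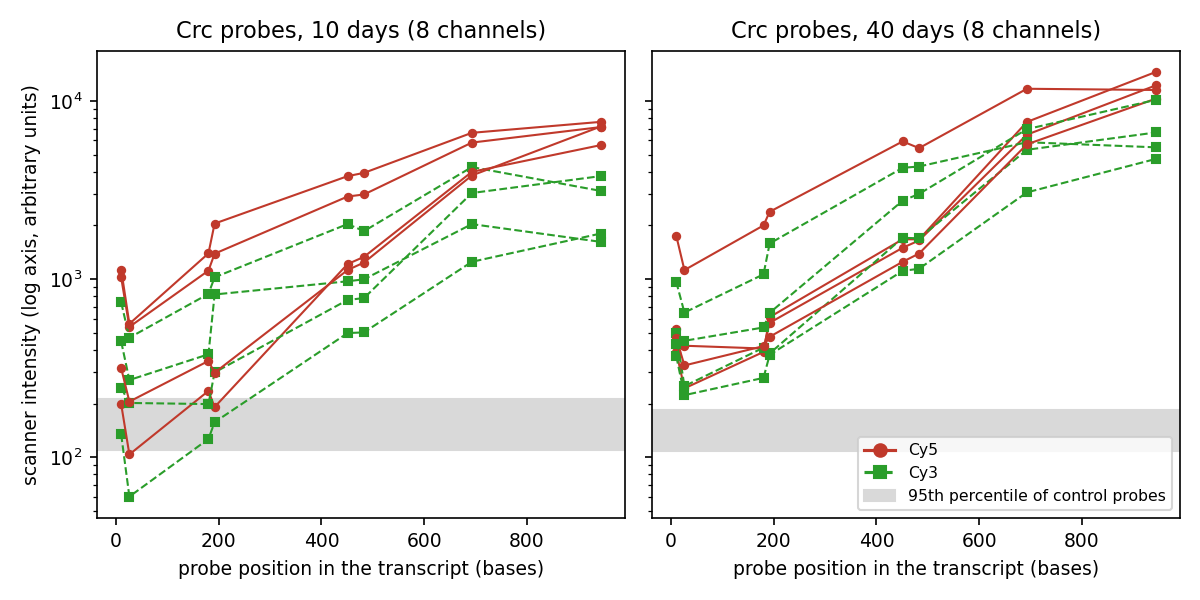
Scanner intensity (log axis, arbitrary units) of the 8 Crc probes against their position in the transcript, in 8 channels of 10 days and 8 of 40 days, with Cy5 as circles and Cy3 as squares and the range of the control probes' 95th percentile in grey. The brightest probe was the last in 12 channels and the last but 1 in 4, and 4 readings at 10 days were at or under the control level.

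By the mean intensity of its probes Crc ranked between 410 and 933 from the top of the 16637 transcripts in the 10-day channels, with a median rank of 586.5. In the 40-day channels it ranked between 260 and 388, with a median of 329.5. The ranks of the 8 channels per age did not overlap, a pattern met by 2.3% of all transcripts in the upward direction. These channels stand for 4 samples per age, and Crc was picked by the same contrast, so nothing is read from this separation. By the mean log2 level of the 8 probes the samples of both ages overlapped, as given below. As percentiles the ranks were 94.4 to 97.5 at 10 days and 97.7 to 98.4 at 40 days. The mean of linear intensities is weighted toward the bright probes at 693 and 944, and transcripts also differ in how well their probes hybridize, so the ranks order signals and not RNA per length.

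The ratio of 40 to 10 days was taken within each array after normexp background correction and loess normalization, and is given on the log2 scale, where 0 means equal signal and 1 a doubling. Over the 8 probes it was -0.21 on array 1 and 0.16 on array 2, by the labels the dye-swapped arrays of letter A. On arrays 3 and 4, of letter B, it was -0.53 and 0.64. Arrays 5 and 6, of letter C, gave 1.92 and 1.20, and arrays 7 and 8, of letter D, gave 0.69 and 1.0. The sign thus differed between the 2 arrays of letter A and between those of letter B, while all 8 probes were higher at 40 days on the 4 arrays of letters C and D. By the joining of channels in the authors' normalized values, described below, the 2 arrays of a letter carried different 40-day samples. Averaged by letter, the log2 ratios were -0.03, 0.05, 1.56 and 0.84 for A, B, C and D, with a mean of 0.61 ± 0.75 (SD, n = 4), or 1.52-fold. The mean was smaller than the spread between letters. Without letter C it was 0.29, and 493 of 16637 transcripts, or 2.96%, had a larger mean ratio than Crc. The spread of the 4 letters was wider than that of 95.4% of transcripts. By dye, the 4 arrays with the 40-day sample in Cy5 gave 0.47 ± 1.10 and the 4 with it in Cy3 gave 0.75 ± 0.46 (SD, n = 4 arrays each). The difference of -0.28 was smaller than either SD but larger in size than that of 98.0% of transcripts, and the part of the dye in the ratio was not tested.

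The size of this ratio depended on which probe was read. At position 944 the ratio was above 0 on all 8 arrays, from 0.53 to 1.95, with letter values of 1.67, 0.92, 0.75 and 1.02 and a mean of 1.09 ± 0.40 (SD, n = 4), or 2.13-fold. At position 693 it was above 0 on 7 of 8 arrays, with a mean of 0.81 ± 0.30 (SD, n = 4). These were the probes with the smallest spread between letters and the only 2 of the 8 whose mean exceeded its SD. The probes at 451 and 483 had means of 0.59 ± 0.68 and 0.60 ± 0.62 (SD, n = 4). The first 4 probes had means of 0.43 ± 1.14, 0.68 ± 1.14, 0.34 ± 1.22 and 0.32 ± 1.27 (SD, n = 4), and were above 0 on 5 of 8 arrays each. In all, 47 of the 64 readings of a probe on an array were above 0. The probe at 944 is the Crc probe in the rows of the study's table used here, so its ratio chose the gene and supports nothing further.

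**Figure D2:**
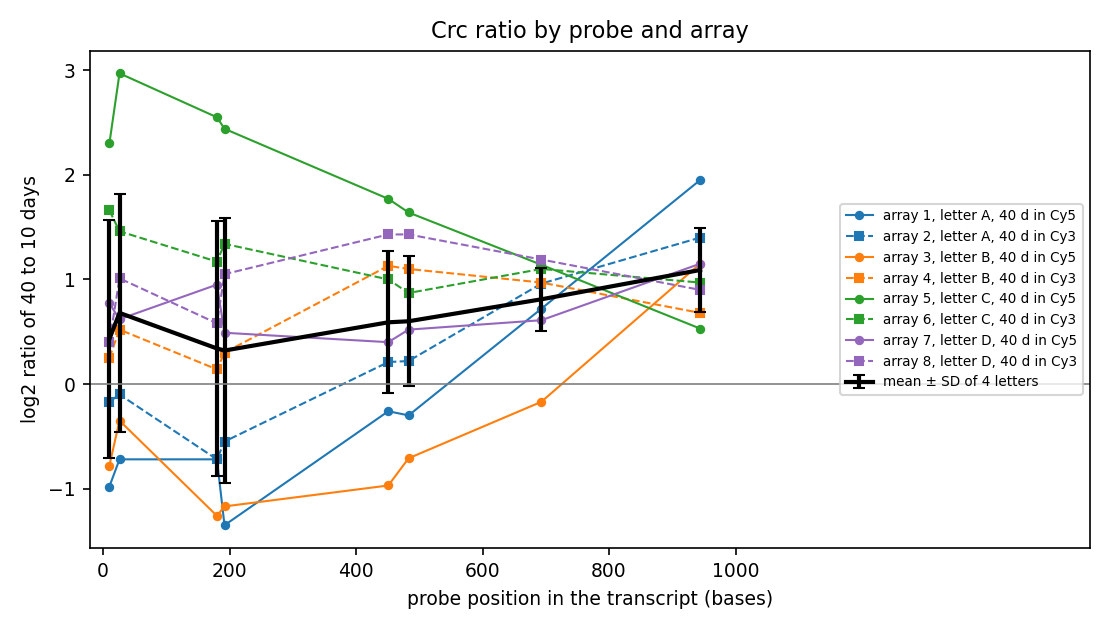
Log2 ratio of 40 to 10 days (vertical axis) for each Crc probe by its position in the transcript (horizontal axis, bases), with 1 line per array coloured by replicate letter, solid where the 40-day sample was in Cy5 and dashed where it was in Cy3. The black line with bars is the mean ± SD of the 4 letters. The lines spread from -1.35 to 2.97 over the first 4 probes, where 4 ratios of arrays 5 and 6, the 2.97 among them, rest on a 10-day reading not above the control level, and lie between 0.53 and 1.95 at the last.

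The arrays also differed in the direction in which the ratio ran along the transcript. On array 1 it climbed from -0.94 over the first 4 probes to 0.53 over the last 4, and on array 5 it dropped from 2.56 to 1.27. The 10-day readings of the first 4 probes were only 0.55 to 1.43 times the control level on array 5 and 0.49 to 1.10 times on array 6, so the early ratios of letter C are not well measured. The difference between the last 4 and the first 4 probes was 1.47, 1.08, 0.71 and 0.67 on the 4 arrays of letters A and B and -1.29 and -0.42 on those of letter C. For letter D it was -0.04 and 0.48. With the 4 readings not above the control level left out, the differences on arrays 5 and 6 were -1.16 and -0.19, the ratio of letter C was 1.39 and the mean of the 4 letters was 0.57 ± 0.68 (SD, n = 4). The same difference was measured in 3189 transcripts with 8 probes of which at least 50% of readings were above the control level. Its median over these was 0.16, 0.16, 0.19 and 0.07 on the arrays of letters A and B and -0.19 and -0.01 on those of letter C, which is the sign of Crc's difference on these 6 arrays at a smaller size, with array 6 close to 0. On arrays 7 and 8, of letter D, the median was -0.05 and 0. Among these transcripts Crc lay at percentiles 97.9, 95.1, 83.3 and 93.5 on arrays 1 to 4 and at 4.95 and 17.0 on arrays 5 and 6. The part of such a shift along transcripts in the Crc ratio was not tested.

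**Figure D3:**
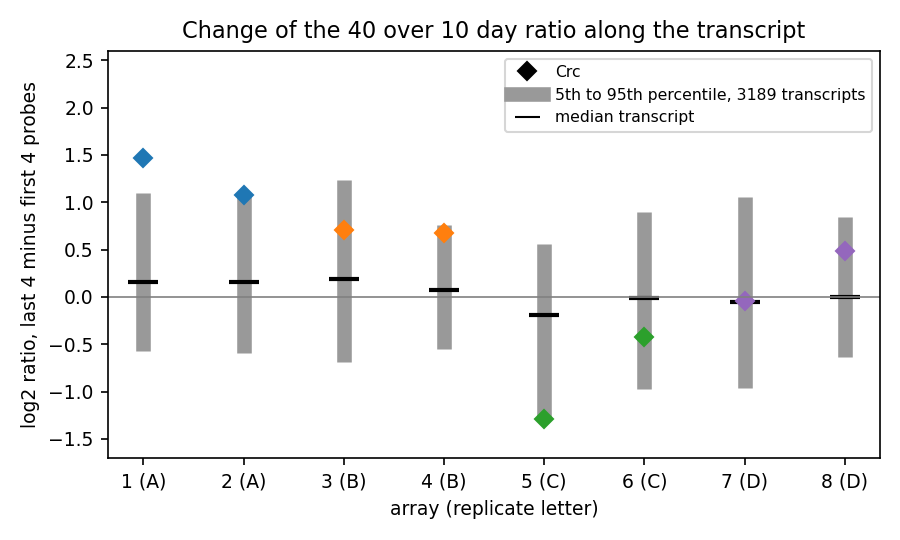
Difference in log2 ratio between the last 4 and the first 4 probes on each of the 8 arrays (letter in brackets), for Crc as diamonds and for 3189 transcripts as the grey range from the 5th to the 95th percentile with the median as a black line. Crc was above the median transcript on arrays 1 to 4 and 8, below it on arrays 5 and 6 and about level with it on array 7.

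The authors also deposited a table of normalized intensities with 1 column for each sample and dye. Against the scanner channels, 8 of its 16 columns followed the channel that the labels give to the same sample, and the other 8 followed a channel of the same age and dye but another letter (the correlation across gene probes with the matching channel was 0.992 or higher, and with any other 0.942 or lower). The 10-day samples keep their dye partners in both sources, with the letters B and C exchanged, whereas the 40-day samples are joined differently. The scanner intensities of the Crc probes were compared as log2 deviations from the channels of the same age and dye. When the 40-day channels were joined as in the labels, the 2 channels of a sample differed by 0.46, 1.13, 1.5 and 0.78 on average over the 8 probes for A to D. Joined as in the table, they differed by 0.63, 0.43, 0.44 and 0.26, against 0.24 to 0.48 for the 10-day samples. Over all transcripts such deviations correlated at -0.36 to 0.34 by the labels and at 0.73 to 0.88 by the table in the 40-day samples. In the 10-day samples they correlated at 0.74 to 0.86 in both sources. Age and dye are not affected, so the array ratios above hold for either source, but under the table's joining the 4 letter ratios share 40-day samples and are not independent.

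With each column under its own sample, Crc had a log2 level, as the mean of 8 probes and both dyes, of 10.15, 9.10, 10.79 and 9.52 in the 10-day samples A to D and of 10.26, 10.27, 11.28 and 10.21 in the 40-day samples. On the linear scale the 10-day samples ran from 549.4 to 1767 and the 40-day samples from 1182 to 2494. The mean was 9.89 ± 0.74 at 10 days and 10.51 ± 0.52 at 40 days (SD, n = 4), a difference of 0.62 or 1.54-fold that is smaller than the SD of the 10-day samples. The ages overlapped, since the 10-day sample C was above 3 of the 4 samples of 40 days, and a 40-day value was the higher in 13 of 16 pairs. Of all transcripts, 3.29% had all 4 samples of 40 days above those of 10 days and 2.24% had them all below. From the lowest upward the order was 10-day B, D and A, 40-day D, A and B, 10-day C and 40-day C. The 10-day A and 40-day D, A and B samples followed each other by 0.06, 0.06 and 0.01, less than the 0.18 to 0.84 between their own dye channels, and are not ordered by these data. The 10-day samples varied more than those of 96.1% of transcripts and the 40-day samples more than those of 92.1%.

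**Figure D4:**
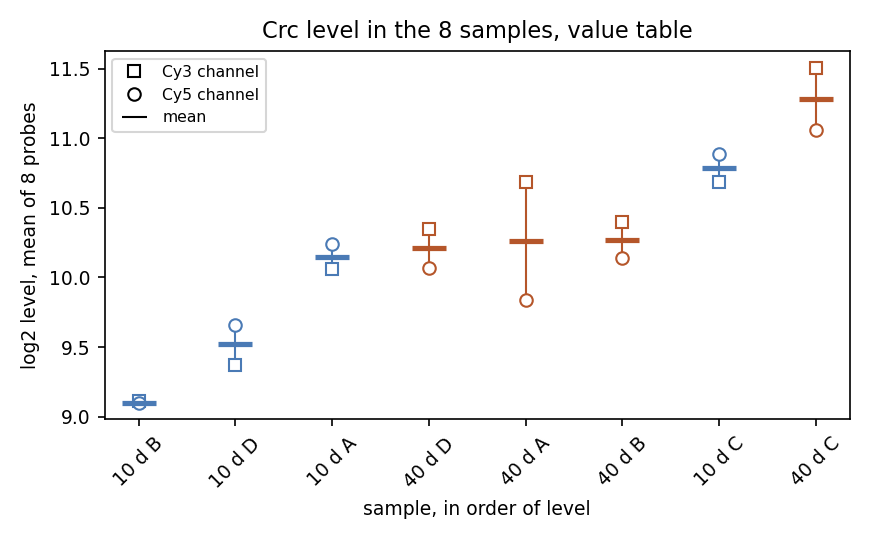
Crc log2 level (mean of 8 probes) in the 8 samples of the normalized table, in order of level, blue for 10 days and brown for 40 days, with the Cy3 channel as a square, the Cy5 channel as a circle and their mean as a bar. The samples 10-day B (9.10) and D (9.52) lie lowest and 40-day C (11.28) highest, with 4 samples close together between 10.15 and 10.27.

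In this table too the ages separated only at the last 2 probes. At position 944 the 10-day samples A to D had normalized intensities of 2964, 4088, 4631 and 5121, and the 40-day samples 10594, 9320, 6665 and 8878. Every 40-day sample was above every 10-day sample, with a difference of 1.09 on the log2 scale (12.01 ± 0.34 against 13.09 ± 0.28, SD, n = 4). At position 693 the 10-day samples had 3047, 2855, 5012 and 3396 and the 40-day samples 6278, 5398, 7002 and 5872, again without overlap. Among all gene probes 2.53% separated in this direction, and Crc was picked by the same contrast, so nothing is read from the count of 2 probes. At position 180 the 10-day samples had 596.4, 202.7, 1030 and 268.4 and the 40-day samples 397.1, 401.1, 1257 and 442.1. There the 10-day samples A and C were above 3 of the 40-day samples, and the 10-day samples B and D were below all 4. The ages also overlapped at the other probes before 693, though not always in this order of samples. The 40-day values were higher in 10 to 13 of 16 pairs at each of the first 6 probes.

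**Figure D5:**
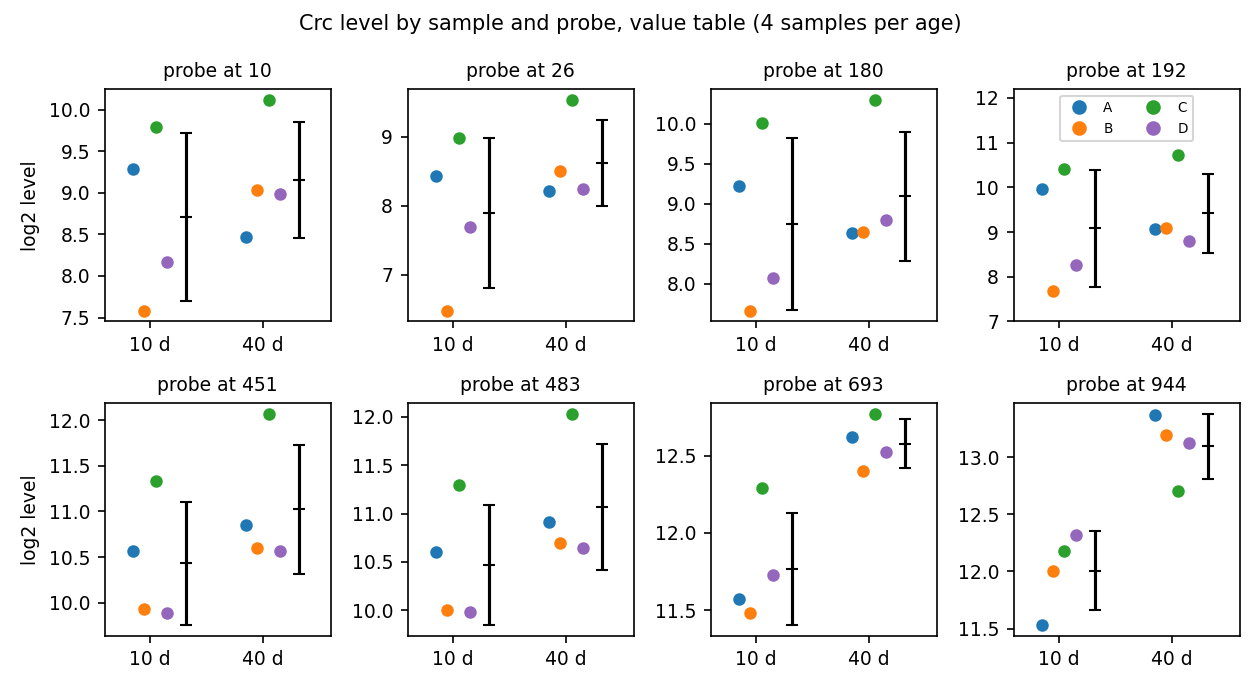
Log2 level of each Crc probe in the 4 samples of 10 days and 4 of 40 days of the normalized table (letters by colour), with the mean ± SD beside each group; each panel has its own vertical scale. The ages overlap at the 6 probes from 10 to 483 and are apart at 693 and 944.

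The samples differed in how steeply Crc signal rose along the transcript, at both ages. In the 10-day samples A and C the last 4 probes exceeded the first 4 by 1.85 and 1.97 on the log2 scale, and in B and D by 3.5 and 2.93. In the 40-day samples the difference was 3.34, 2.90, 2.22 and 3.01 for A to D. The levels over the first 4 probes were 9.22, 7.35, 9.80 and 8.05 at 10 days and 8.59, 8.82, 10.17 and 8.70 at 40 days, so the samples with small differences (10-day A and C, 40-day C) were those high at the early probes. Over the last 4 probes the levels were 11.17 ± 0.41 at 10 days and 11.94 ± 0.32 at 40 days (SD, n = 4), and over the first 4 they were 8.61 ± 1.11 and 9.07 ± 0.74. The median transcript had differences of 1.26 and 1.31 in 10-day A and C and of 1.27 in 40-day C, the 3 smallest of the 8 samples, against 1.44 to 1.56 in the others. The steepness of the median transcript thus moved with that of Crc, and its part in the Crc levels was not tested.

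Other genes of the same compartment could be followed in few cases, because transcripts were named only where the study's probe table pairs a transcript with a gene. The copy of that table used here is shortened. It named 701 of 16637 transcripts, all of which the study had called higher at 40 days, so their direction is not independent evidence and genes that fell could not be named. Of 67 listed genes of protein folding, degradation and stress sensing in the endoplasmic reticulum, translocation, calcium handling and transport to the Golgi, 3 could be named. None of the 3 passed limma's adjusted p of 0.01 over all transcripts, where 0.144% of transcripts passed as higher and 0.0421% as lower, nor the looser 0.05, where 1.33% and 0.198% passed. Their median log2 ratio was 0.53 against 0.01 for all transcripts. As the 3 were named because the study had called them higher at 40 days, nothing is read from that comparison. CaBP1, which encodes a disulfide isomerase-like protein of the endoplasmic reticulum, had letter ratios of 0.09, 0.25, 0.81 and 0.96, with a mean of 0.53, a standard error of 0.17 and a limma adjusted p of 0.24. The gene epsilonCOP, for a subunit of the COPI coat that carries cargo from the Golgi back to the endoplasmic reticulum, had 0.15, 0.19, 0.80 and 0.41, with a mean of 0.39, a standard error of 0.12 and a limma adjusted p of 0.24. Both had their lower ratios in letters A and B, as Crc did. Cam, for the calcium sensor calmodulin, had 1.26, 2.11, 1.04 and 1.08, highest in letter B, with a mean of 1.37, a standard error of 0.21 and a limma adjusted p of 0.067. With the channels treated separately by the labels and no replicate block, Cam passed at a limma adjusted p of 0.0084 and the other 2 did not. That joins 40-day channels whose deviations correlated at -0.36 to 0.34, against 0.73 to 0.88 by the normalized table, so nothing is read from this pass. For Cam the limma adjusted p was 0.029 with the channels joined as in the normalized table and 0.027 in that table itself. There its samples of the 2 ages did not overlap, and it passed 0.05 but not 0.01. All 64 scanner readings of Cam at 10 days were above the control level, against 37 for CaBP1 and 35 for epsilonCOP.

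The transcripts most like Crc were sought by Pearson correlation of normalized log2 levels over the 16 channels, which stand for 8 samples, among 5153 transcripts above the control level in at least 8 channels. The highest correlation was 0.954, the median was 0.111, and 168 transcripts were above 0.8. Of the first 20 transcripts 8 could be named, and of all 5153 it was 541. All named transcripts had been called higher at 40 days by the study, so the genes given next come from that set alone. Those named and closest were CG1681, now GstT4 of the glutathione S-transferase family (r = 0.948), CG32495, now Gss2, a glutathione synthetase gene (0.937), Idgf3, of the chitinase-like imaginal disc growth factors (0.922), CG13704, now hoka, for a membrane protein of smooth septate junctions (0.921), and epsilonCOP (0.918). Their correlations after the mean of each age was taken out were 0.932, 0.916, 0.906, 0.933 and 0.893, so samples of 1 age differed alike in these genes and in Crc. Over the 8 array ratios the same genes had correlations of 0.907, 0.881, 0.879, 0.916 and 0.840, but ranked 248, 374, 382, 210 and 526, and the 5 closest named genes were then others. Channels of 1 array or 1 sample are not independent, and the correlations are descriptions.

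Of the markers listed to check the tissue, none of the 5 for heart and muscle and none of the 3 for testis could be named, so the label of cardiac tube was not checked against them. Every named transcript had been called higher at 40 days by the study, so the direction and p-values of named markers are not independent evidence. A marker that fell could not be named. The haemocyte gene NimC4, a phagocytic receptor, was the 1 of 2 listed haemocyte markers with a named transcript. It was higher at 40 days at a limma adjusted p of 0.0060, and at 0.0013 in the normalized table. With any 1 letter left out, no transcript passed 0.01, NimC4 included, so that loss is not particular to this gene. Only 4 of its 64 readings at 10 days were above the control level, against 42 of 64 at 40 days, so the size of its rise, a fitted log2 ratio of 2.06, is not well measured. The fat body gene apolpp, 1 of 3 fat body markers and the source of the main lipoprotein of the blood, had letter values of 1.77, 1.82, -0.04 and 1.33, with a mean of 1.22, a standard error of 0.35 and a limma adjusted p of 0.21. Its lowest letter was C, where Crc was highest, while NimC4 lay between 1.90 and 2.26 in all 4 letters. The part of such cells in the Crc values was not tested.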

How the data were processed

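Per the file headers, the authors deposited the intensity of each probe in each channel as written by NimbleScan 2.5.26, with no background subtraction or normalization named there; per the study's methods, the deposited table of normalized values holds intensity after lowess normalization. Its scale is linear, and its centring is not given in the sources used here. Scanner values were corrected with normexp (offset 50) and normalized by loess within arrays, with the 4100 random control probes at weight 0, in limma 3.58.1 under R 4.3.3. Each ratio was expressed as old over young, then averaged over a transcript's probes and over the arrays that are dye-swapped within a letter by the labels. For every transcript lmFit and eBayes tested whether the 4 letter ratios differed from 0, at a Benjamini-Hochberg adjusted p of 0.01. The procedure was tested on simulated data. The p-values from the letter ratios rest on the spread between the 4 letters of these samples. By the joining of channels in the deposited table of normalized values, the letters share old samples. Under that joining the ratios are not independent, and these p-values do not measure the spread between independent samples. Channel levels for the correlations were taken after loess and Aquantile. Value table columns were joined to probes by their grid position. Python 3.11.15, numpy 2.4.6, pandas 2.3.3 and matplotlib 3.10.9 made the tables and plots. The number of arrays limits the precision.

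Genes named are Crc, every listed gene that the probe table names, and the 5 named transcripts most like Crc. Crc and the lists were chosen with earlier results of these data known. Alternatives were no background correction, an offset of 10, median centring, the value table, separate channels, the median of probes, a filter on dim probes, a threshold of 0.05 leaving out each letter, the highest probe for the ranks and array ratios for the correlations. The split of the probes, and the joining of channels that the deposited normalized values follow, were chosen after seeing the data, as was leaving out dim readings of Crc. Probe sequences were not used here.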

Additional observations from a re-analysis of the deposited data

Results flagged for a closer look

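In 31 groups of 4 values of Crc, 3 held a sample that stood apart by Dixon's criterion. Chance flags about 1 in 20 separate groups, but these groups are not separate, since neighbouring probes read alike and the mean of the 8 probes contains them. In each it was the 40-day sample C of the value table, at the upper end. For the mean of the 8 probes the gap to the next sample was 0.941 of the whole range, with levels of 10.21, 10.26, 10.27 and 11.28. At the probe at position 180 the gap was 0.907 of the range, and at 192 it was 0.845. At position 944 the same sample was the lowest of the 4.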

How the results depend on the processing

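Crc was picked for a rise in this same contrast, so a ratio above 0 under other settings supports nothing further. The Crc log2 ratio of 0.61 stayed above 0 under every alternative tried, though its SD of 0.75 exceeds it. It ran from 0.44 (first 4 probes only) and 0.53 (median of the probes) to 0.71 (median centring) and 0.77 (last 4 probes only), and from 0.29 to 0.82 when 1 letter was left out, the lowest without letter C. Without the 4 readings not above the control level it was 0.57. It was 0.62 in the value table. In the fits with no replicate block it was 0.61, which follows from the same array ratios however the channels are joined. The count of transcripts called, 31, became 53 with an offset of 10, 56 in the value table, 58 with dim probes left out, 16 with the median of probes and 255 at an adjusted p under 0.05. With separate channels and no replicate block it was 148 by the labels and 50 by the value table's joining of channels. It was 0 with any letter left out (limma, 1610 to 2937 at an unadjusted p under 0.05, against 2934 with all 4 letters). Of the 3 listed genes none passed, with letters left out 0 to 0, and 1 (Cam) passed with separate channels by the labels. Nothing is read from that pass, as given above. Deviations of the 10-day and 40-day sample of a letter correlated at -0.13 to 0.38 by the labels and at -0.19 to 0.47 in the value table. In neither were all 4 above 0.1, so the letters were not taken to pair the samples beyond the arrays they share by the labels. The median percentile of Crc among transcripts was 97.6, and 97.7 by the highest probe.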
